A study of Homo sapiens with 9 samples.

Results

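RNase MRP, the ribonucleoprotein enzyme built on the noncoding RNA RMRP, was followed through 9 RNA-seq libraries of 293T cells. Its 10 genes, of 57163 in the count table, were RMRP and the protein subunit genes POP1, POP4, POP5, POP7, RPP14, RPP25, RPP30, RPP38 and RPP40. RMRP was picked because its counts were below those of the control library in most transcription factor (TF) libraries, and the proteins were taken along as the known partners of the RNA. All 10 genes were found in the table and all 10 were at a mean of at least 1 CPM (counts scaled to library size).

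293T is a human embryonic kidney line that carries the SV40 large T antigen. Cells were harvested 48 h after transfection with a lentiviral vector plasmid, pLV[Exp]-EGFP-EF1A, carrying the human coding sequence of 1 TF behind the EF1A promoter, or with the control, labelled blank and described in the methods as an empty plasmid. The study sets 4 TFs whose sites it found enriched near conserved lncRNAs, called CLB_TFs (NRF1, E2F4, EGR1 and ZBTB7A), against 4 control TFs (HOXA11, RORA, TFCP2 and NKX2-8). Each TF and the control had 1 library, so a difference from the control has no replicate check, and the sources used here do not give the share of cells that took up each plasmid.

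Libraries held 14177970 to 18915400 counts, with a median of 17016549, so 1 count was worth 0.0544 to 0.0691 CPM after scaling. Each TF gene was highest in its own library, with 40632 counts of NRF1 at the low end and 264495 counts of TFCP2 at the high end. TFCP2 had 653 to 703 counts in the other 7 TF libraries and 9812 in the control library, which sets the control apart from them. The part of this in the RMRP values was not tested. The kidney line markers PAX2 and VIM were present in every library at 9.57 to 12.7 and 964.5 to 1229 CPM, as was NES at 13.1 to 24.1 CPM. Of the listed markers of other cell types, COL3A1, a fibroblast collagen, was at 2.06 to 4.13 CPM. The other listed fibroblast markers were lower, with LUM at 0.344 to 0.924 CPM and COL1A2 and DCN at no more than 4 counts. CD14, KRT14 and HBA1 reached 11, 15 and 26 counts in their highest library, and KRT5, ALB and APOA1 reached 3, 5 and 11. PTPRC and CD3E had at most 1 count and HBB had 0 throughout.

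RNase MRP is an endonuclease that cuts the precursor of ribosomal RNA in the first internal transcribed spacer, and it was first described for cutting RNA made at the mitochondrial replication origin. RMRP is made by RNA polymerase III from a promoter that lies wholly upstream of the gene, it is short and it has no poly(A) tail. RMRP mutations cause cartilage-hair hypoplasia. RNase P, which removes the leader of precursor tRNAs, is built on a related RNA, RPPH1, and shares most of its proteins with RNase MRP, so a subunit mRNA belongs to both enzymes.

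The RMRP row was the gene ENSG00000269900 on GRCh37 at chr9:35657748-35658015, minus strand, 268 bases in 1 exon with no overlapping gene. It holds all 264 bases of the RMRP transcript in the GENCODE annotation. The transcript, at chr9:35657751-35658014, is printed because the whole finding on RMRP rests on reads from this short stretch.

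RMRP: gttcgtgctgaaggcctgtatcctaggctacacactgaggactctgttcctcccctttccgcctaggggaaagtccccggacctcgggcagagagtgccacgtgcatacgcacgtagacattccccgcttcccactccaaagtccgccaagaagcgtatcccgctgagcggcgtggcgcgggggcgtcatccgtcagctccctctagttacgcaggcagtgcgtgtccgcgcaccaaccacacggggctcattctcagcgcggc

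RMRP was low in 7 of the 8 TF libraries, with the TFCP2 library apart from the others. It had 16 counts in the NRF1 library, 14 in E2F4, 18 in EGR1 and 16 in ZBTB7A. It had 20 counts in the HOXA11 library, 31 in RORA, 57 in TFCP2 and 19 in NKX2-8, and 74 in the control library. Only the TFCP2 library came near the control. In bulk RNA from a culture, fewer cells with the RNA and less of it per cell cannot be told apart.

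**Figure D1:**
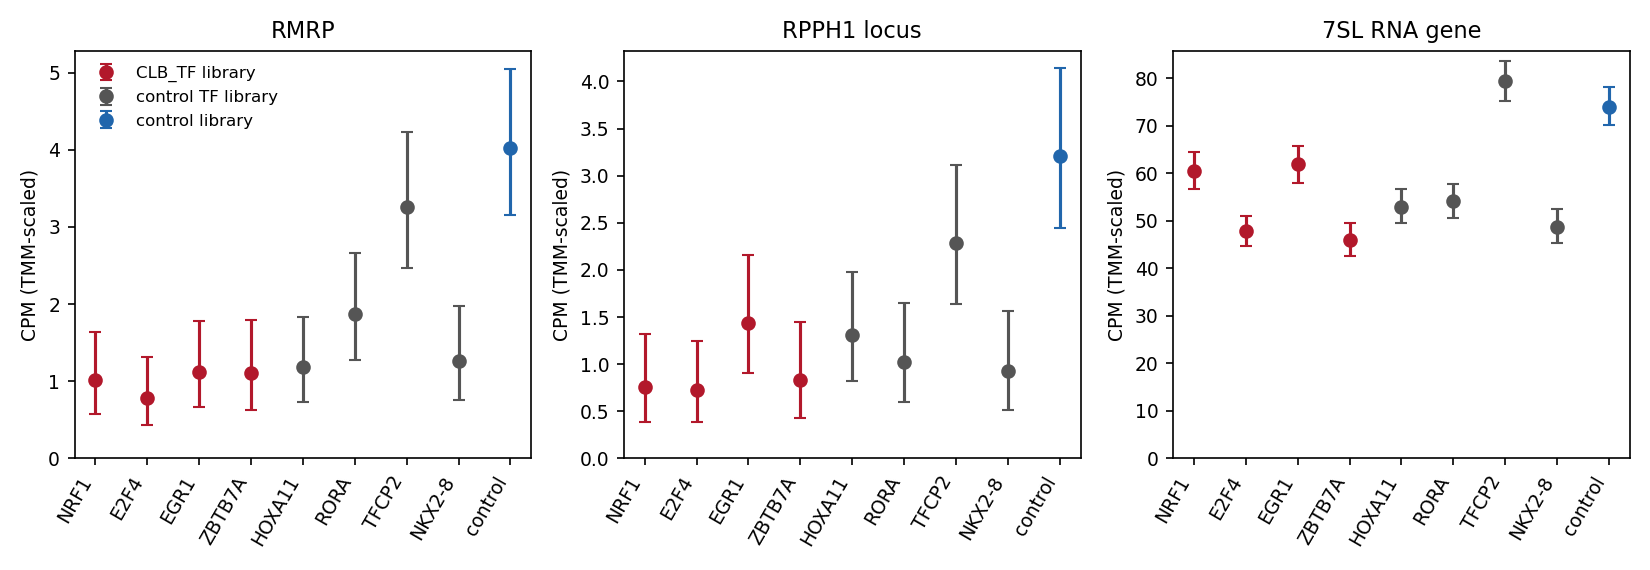
Level of RMRP, the RPPH1 locus and a 7SL RNA gene, in TMM-scaled CPM on linear axes from 0, in the 4 CLB_TF libraries, the 4 control TF libraries and the control library. Points are single libraries and bars are 95% intervals for counting error only. RMRP was at 0.784 to 1.87 CPM in 7 TF libraries, at 3.26 CPM in TFCP2 and at 4.02 CPM in the control.

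From low to high, the RMRP level was 0.784 CPM in the E2F4 library, 1.01 in NRF1, 1.11 in ZBTB7A, 1.12 in EGR1, 1.19 in HOXA11, 1.26 in NKX2-8, 1.87 in RORA, 3.26 in TFCP2 and 4.02 in the control. Of the 8 neighbouring steps in this order, only that of TFCP2 over RORA was larger than counting error, with a ratio of 1.74 and a 95% interval of 1.11 to 2.79. Of all 36 pairs of libraries, 15 had an interval that left out 1, and in 14 of these the control or TFCP2 was 1 of the pair. The E2F4 to NKX2-8 end of the order therefore cannot be ranked at this depth.

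The ratio of each TF library to the control, with its 95% exact conditional binomial interval for counting error, was 0.251 (0.136 to 0.435) for NRF1, 0.195 (0.102 to 0.348) for E2F4, 0.279 (0.157 to 0.473) for EGR1 and 0.275 (0.149 to 0.476) for ZBTB7A. It was 0.296 (0.171 to 0.490) for HOXA11, 0.466 (0.296 to 0.717) for RORA and 0.313 (0.179 to 0.524) for NKX2-8. The TFCP2 ratio of 0.811 had an interval of 0.564 to 1.16, which holds 1. All 8 ratios share the control library and are given with no test, since RMRP was chosen on them.

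By the rule used throughout, a gene was called at a difference of 2-fold or more from the control library and a level of 1 CPM or more in the higher of the pair. RMRP was lower by this rule in 7 of 8 TF libraries, with a median log2 fold change of -1.70. The share of all tested genes that were lower by it was 0.235% in NRF1, 0.261% in E2F4, 0.28% in EGR1, 0.439% in ZBTB7A, 0.34% in HOXA11, 0.393% in RORA, 0.185% in TFCP2 and 0.879% in NKX2-8. RORA lay just inside the 2-fold limit at a log2 fold change of -1.06, and TFCP2 was outside it at -0.29. By rank from the lowest log2 fold change, RMRP was gene 7 of 14894 in NRF1, 4 of 14193 in E2F4, 4 of 14263 in EGR1 and 5 of 14133 in ZBTB7A. It was gene 6 of 14126 in HOXA11, 49 of 13994 in RORA, 682 of 14046 in TFCP2 and 11 of 14220 in NKX2-8. RMRP was picked on this contrast, so its calls and ranks reflect that choice and are a description only.

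The call is a difference from the control library alone. RMRP lay at 0.784 to 1.87 CPM in every TF library but TFCP2, so a reference made of TF libraries leaves little room for a lower call. With the mean of the 7 other TF libraries as the reference in place of the control, RMRP was lower in 0 libraries, the median was -0.34 and the TFCP2 library stood at 1.37. With TFCP2 also left out of that mean, a reference chosen after seeing the data, the count was again 0 and the median was -0.05.

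RMRP was then set between the TF classes, where the control library plays no part. It averaged 1.01 ± 0.156 CPM in the 4 CLB_TF libraries and 1.90 ± 0.961 CPM in the 4 control TF libraries (SD). The classes did not overlap, at 0.784 to 1.12 CPM against 1.19 to 3.26 CPM. Among the 13983 genes at a mean of at least 1 CPM, 4.6% had all CLB_TF libraries below all control TF libraries, and 6.97% did not overlap in either direction. The highest CLB_TF library and the lowest control TF library were EGR1 and HOXA11, which differed by less than counting error, and without TFCP2 the control TF libraries were at 1.19 to 1.87 CPM.

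The neighbours of RMRP on the chromosome were flat. CCDC107 starts 272 bases upstream of the RMRP row and runs on the other strand, and its log2 fold changes were -0.12 to 0.23. ARHGEF39, 857 bases away, stood at -0.11 to 0.17. Each interval of these 16 ratios held 1.

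The row taken for the RNA of RNase P was also low in 7 of the 8 TF libraries. This row is the gene ENSG00000259001 at chr14:20811207-20811844, minus strand, 638 bases, identified by its place beside PARP2 and not by a name. It is annotated as the host gene of a small RNA, and RPPH1 itself has 341 bases in RefSeq. Its counts can therefore include reads from outside RPPH1. The row shares 104 exon bases with PARP2 on the other strand, and PARP2 itself stood at log2 fold changes of -0.36 to -0.01. The row had 12 counts in the NRF1 library, 13 in E2F4, 23 in EGR1 and 12 in ZBTB7A. It had 22 in HOXA11, 17 in RORA, 40 in TFCP2 and 14 in NKX2-8, and 59 in the control.

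As for RMRP, the control and TFCP2 libraries were the 2 highest. The log2 fold change of the RPPH1 locus was -1.97 to -1.1 in the 7 TF libraries that passed the 2-fold rule and -0.47 in TFCP2. Of the counts of RMRP and the RPPH1 locus together, RMRP made up 43.9% in the EGR1 library and 64.6% in RORA. The other TF libraries lay between these, and the control was at 55.6%. The exact binomial 95% intervals of these shares all overlapped that of the control, 46.8 to 64.3%. Over the 9 libraries, log2 levels of RMRP and the RPPH1 locus had a Pearson r of 0.89, given as a description over libraries that differ in depth.

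Another short RNA without a tail, the RNA of the signal recognition particle, was measured at a far higher depth. The gene ENSG00000283029 at chr14:50053297-50053596 matched 293 of the 297 bases of a 7SL RNA in the GENCODE annotation, and 7SL genes are near-identical copies, so its reads are uncertain among them. It had 958 counts in the NRF1 library, 853 in E2F4, 990 in EGR1 and 665 in ZBTB7A. It had 891 in HOXA11, 895 in RORA, 1387 in TFCP2 and 734 in NKX2-8, and 1361 in the control.

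Here too TFCP2 and the control were the highest libraries, but no difference reached 2-fold, with log2 fold changes of -0.69 to -0.26 in 7 TF libraries and 0.10 in TFCP2. In all, 5 of 52 listed short RNAs without a tail were found in the table and 2 were at a mean of at least 1 CPM, the RPPH1 locus and the 7SL gene. Of their 16 pairs with a TF library 7 were lower by the 2-fold rule, all of the RPPH1 locus. The other 3 were below that level. TERC, the telomerase RNA, had 4 to 14 counts per library and RNU11, a minor spliceosome RNA, 0 to 5, with no pair past the rule. SCARNA9, a small Cajal body RNA, had 3 to 22 counts and went the other way in the HOXA11 library, with 22 counts against 8 in the control, a ratio of 3.01 (1.29 to 7.81) at 1.31 CPM, which passes the 2-fold rule. The part that the recovery of short or untailed RNA had in the RMRP values was not tested.

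The protein subunit mRNAs stayed close to their control levels. Of the 72 pairs of a subunit and a TF library, 0 differed from the control by 2-fold, and the log2 fold changes ran between -0.57 and 0.52. The share of all tested genes higher by the rule was 8.24% in NRF1, 3.68% in E2F4, 2.5% in EGR1, 1.92% in ZBTB7A, 1.17% in HOXA11, 0.522% in RORA, 0.491% in TFCP2 and 2.83% in NKX2-8. Those shares take in genes down to 1 CPM and were not matched to the level of the subunits. The intervals for counting error left out 1 in 16 of the 72 pairs, 8 of them higher and 8 lower. Over all pairs of a TF library and a gene at a mean of 10 to 100 CPM, which takes in every subunit, 14% were higher and 18.2% lower by the same interval.

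**Figure D2:**
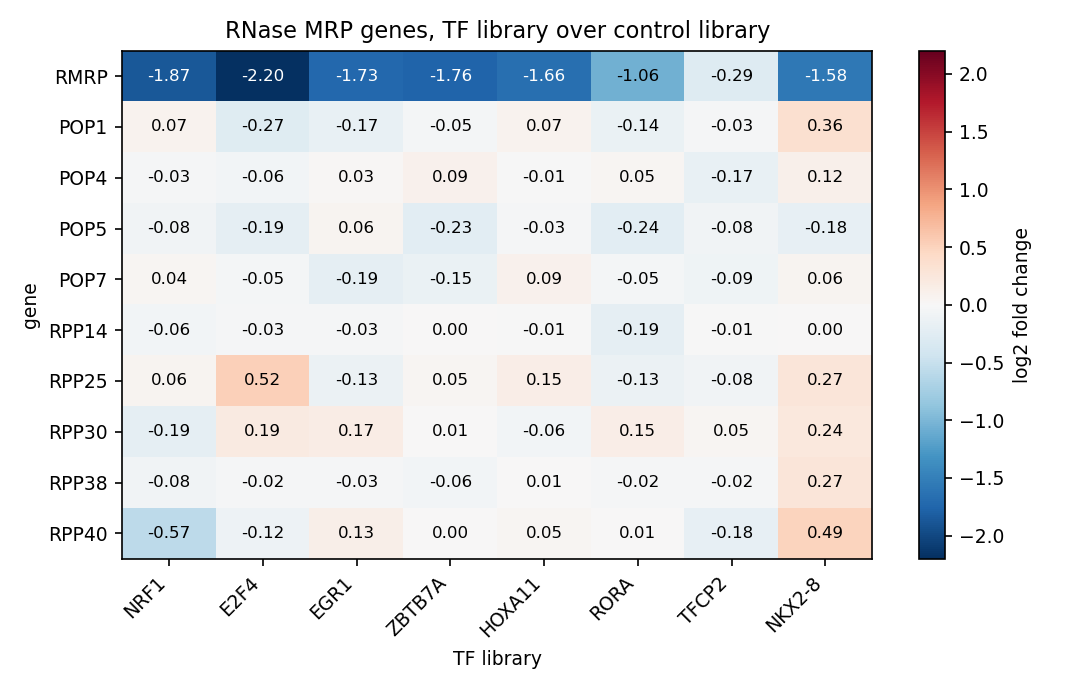
Log2 fold change of the 10 RNase MRP genes (down the page) in each TF library over the control library (across), with the value written in each cell and blue for lower, red for higher. RMRP stood at -2.2 to -1.06 in 7 libraries and at -0.29 in TFCP2, while the 9 protein genes stayed between -0.57 and 0.52.

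The range of RMRP over the 9 libraries was 2.2 on the log2 scale. Those of the proteins were 0.19 for RPP14 at the low end and 1.06 for RPP40 at the high end, beside a median of 0.45 over the 13983 genes at a mean of at least 1 CPM. Fewer counts widen a range, and RMRP had far fewer counts than any subunit.

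The largest differences of the proteins were in RPP40, RPP25 and POP1. RPP40, a subunit of the arm that holds POP5, RPP14 and RPP30, is at chr6:4994966-5004297, minus strand. It was at 8.39 CPM in the NRF1 library, 11.5 in E2F4, 13.7 in EGR1 and 12.5 in ZBTB7A. It was at 12.96 CPM in HOXA11, 12.6 in RORA, 11.1 in TFCP2 and 17.6 in NKX2-8, and at 12.5 CPM in the control. NRF1 was the lowest library and NKX2-8 the highest, with ratios to the control of 0.671 (0.538 to 0.834) and 1.41 (1.17 to 1.69).

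RPP25 and POP7 code for the pair of small Alba-type proteins that binds the P3 helix of the RNA. RPP25, at chr15:75246757-75249805 on the minus strand, was at 37.1 CPM in NRF1, 51.2 in E2F4, 32.7 in EGR1 and 36.9 in ZBTB7A. It was at 39.5 CPM in HOXA11, 32.7 in RORA, 33.7 in TFCP2 and 43.1 in NKX2-8, and at 35.7 CPM in the control. The E2F4 library stood out, with 914 counts against 657 in the control and a ratio of 1.43 (1.29 to 1.59). POP7, at chr7:100303676-100305118 on the plus strand, stayed within 63.2 to 76.7 CPM in the TF libraries and was at 72.0 CPM in the control.

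POP1, the largest subunit, which wraps around the RNA, is at chr8:99129525-99172062, plus strand. It was at 21.5 CPM in NRF1, 16.96 in E2F4, 18.2 in EGR1 and 19.7 in ZBTB7A. It was at 21.4 CPM in HOXA11, 18.5 in RORA, 19.98 in TFCP2 and 26.2 in NKX2-8, and at 20.4 CPM in the control. NKX2-8 was the highest library, at a ratio of 1.28 (1.11 to 1.48), and E2F4 the lowest, at 0.830 (0.711 to 0.968).

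POP5, RPP14 and RPP30 code for small core proteins of the same arm as RPP40. POP5, at chr12:121016567-121019201 on the minus strand, was at 18.9 to 23.4 CPM in the TF libraries and 22.4 CPM in the control. RPP14, at chr3:58291974-58310422 on the plus strand, was the steadiest, at 19.8 to 22.7 CPM in the TF libraries and 22.6 CPM in the control. RPP14 shares 1885 exon bases, 22.5% of its length, with HTD2 on the same strand, so its reads are uncertain.

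RPP30, at chr10:92631473-92668310 on the plus strand, was at 35.4 CPM in NRF1, 46.2 in E2F4, 45.6 in EGR1 and 40.9 in ZBTB7A. It was at 39.0 CPM in HOXA11, 44.9 in RORA, 42.0 in TFCP2 and 47.9 in NKX2-8, and at 40.6 CPM in the control. Its NRF1 value was below the control by more than counting error and its E2F4, EGR1 and NKX2-8 values were above it.

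POP4, which contacts RNA and protein in the catalytic core, and RPP38, a relative of ribosomal protein L7Ae that binds RNA, complete the list. POP4, at chr19:30094924-30108144 on the plus strand, was at 29.4 to 36.1 CPM in the TF libraries and 33.2 CPM in the control. RPP38, at chr10:15139179-15181817 on the plus strand, was at 17.3 to 18.5 CPM in 7 TF libraries, 22.2 CPM in NKX2-8 and 18.4 CPM in the control. Opposite-strand genes cover 33.0% of the exon bases of POP4 and 26.9% of those of RPP38, and the sources used here do not say whether reads were counted by strand.

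The NKX2-8 library was the highest of the 9 for POP1, POP4, RPP30, RPP38 and RPP40. In it 7 of the 9 subunits were above the control and the median of their log2 fold changes was 0.24, beside -0.02 over all tested genes. In the other 7 TF libraries the median of the subunits was between -0.08 and 0.01. These medians are over genes and share the control, and no test was made of them.

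**Figure D3:**
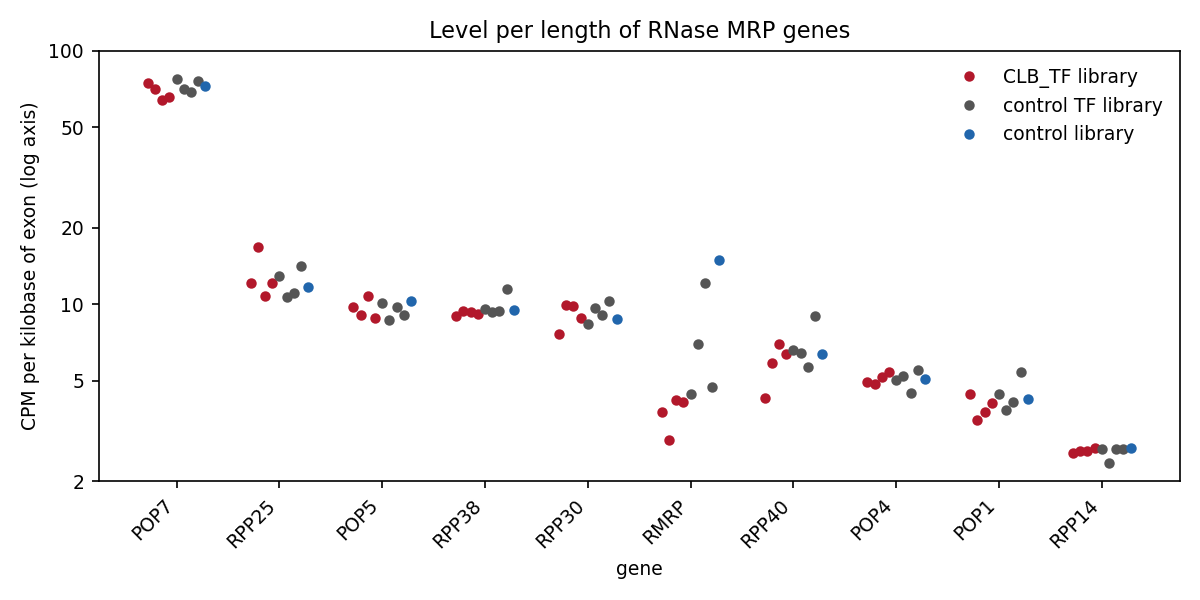
Level per length of the 10 genes in every library, in CPM per kilobase of exon on a log axis, with genes ordered by their mean. Each point is 1 library, in the order NRF1, E2F4, EGR1, ZBTB7A, HOXA11, RORA, TFCP2, NKX2-8 and control within each gene. RMRP ran over 2.92 to 15.01 CPM per kilobase, while RPP14 kept to 2.37 to 2.71.

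Per kilobase of exon, the mean level over the 9 libraries was highest for POP7, at 71.2 ± 4.62 CPM per kilobase (SD, n = 9). RPP25 followed at 12.5 ± 1.95, then POP5 at 9.60 ± 0.725, RPP38 at 9.58 ± 0.749 and RPP30 at 9.13 ± 0.856. RMRP was at 6.48 ± 4.24, beside RPP40 at 6.39 ± 1.24. POP4 at 5.06 ± 0.301, POP1 at 4.19 ± 0.550 and RPP14 at 2.63 ± 0.107 CPM per kilobase were the lowest. POP5, RPP38 and RPP30 differed by less than their spread, and the spread of RMRP covers the levels of most of the proteins. A short RNA without a tail and a long mRNA are not recovered alike by a library kit, so the RMRP level is not a measure of RNA per protein.

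The classes were compared for the 9 proteins with the quasi-likelihood test of edgeR, with Benjamini-Hochberg adjustment over all 15012 genes tested and the TFs of a class standing in for replicates. The question was whether CLB_TFs and control TFs differ as classes. Of the 9 subunits, 0 passed an adjusted p of 0.05, 0 had an unadjusted p under 0.05, and DESeq2 also called 0. Of all genes tested, 1450 or 9.66% had an unadjusted p under 0.05, so 0 of 9 is near what that share gives. The background was 9 of 15012 genes called, or 0.06%, all higher in the CLB_TF libraries.

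RPP40 averaged 11.5 ± 2.27 CPM in the CLB_TF libraries and 13.6 ± 2.81 CPM in the control TF libraries (SD, n = 4 each), a log2 fold change of -0.22 ± 0.17 (SE; 95% interval -0.59 to 0.14; edgeR adjusted p = 0.691). POP1 averaged 19.1 ± 1.96 CPM against 21.5 ± 3.35 CPM, a log2 fold change of -0.16 (-0.42 to 0.09; edgeR adjusted p = 0.673). RPP25 averaged 39.5 ± 8.05 CPM against 37.3 ± 4.94 CPM, at 0.10 (-0.20 to 0.39; edgeR adjusted p = 0.853). For the other 6 proteins the log2 fold change was between -0.10 and 0.04, and for all 9 the libraries of the 2 classes overlapped. The interval of each protein leaves out a 2-fold difference between the classes.

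**Figure D4:**
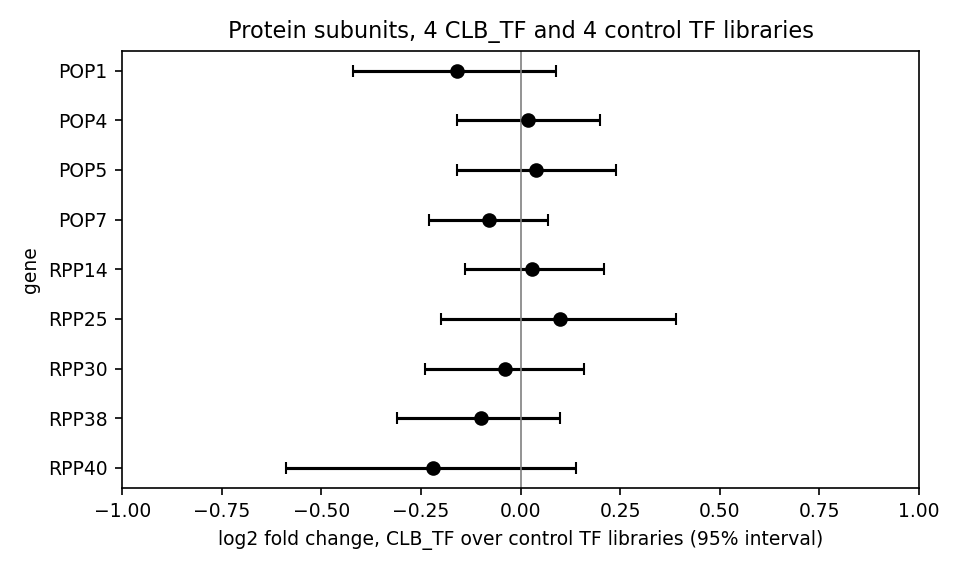
Log2 fold change of the 9 protein genes, 4 CLB_TF over 4 control TF libraries, with 95% intervals from the edgeR quasi-likelihood fit. Every interval crosses 0 and stays inside -1 and 1, and the widest is that of RPP40, -0.59 to 0.14.

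NRF1 is a TF whose sites hold the core GCATGCGC, so the stretch of 250 bases before the start of each member was searched for this core, on both strands, in the RefSeq promoters on GRCh38.p14. By symbol, 8 of the 10 members were matched, and RMRP and POP1 were not. The core was present in POP4, POP5 and RPP14 and in 2.631% of all 35116 promoters. In POP4 and RPP14 a match on each strand overlapped the other. The 3 promoters are printed 5′ to 3′ along the gene, with the matches in capitals. They set a motif of an overexpressed TF beside the values measured in its library.

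POP4, chr19:29606033-29606282, plus strand: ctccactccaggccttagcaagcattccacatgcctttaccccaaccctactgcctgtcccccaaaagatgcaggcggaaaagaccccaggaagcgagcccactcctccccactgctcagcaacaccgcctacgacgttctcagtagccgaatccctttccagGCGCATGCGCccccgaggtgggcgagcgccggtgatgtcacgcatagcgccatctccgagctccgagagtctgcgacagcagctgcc

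POP5, chr12:120581403-120581652, minus strand: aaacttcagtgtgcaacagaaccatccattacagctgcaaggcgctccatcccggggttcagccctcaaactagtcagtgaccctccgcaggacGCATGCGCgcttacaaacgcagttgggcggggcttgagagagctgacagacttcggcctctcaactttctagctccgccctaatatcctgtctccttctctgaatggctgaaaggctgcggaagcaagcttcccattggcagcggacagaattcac

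RPP14, chr3:58306270-58306519, plus strand: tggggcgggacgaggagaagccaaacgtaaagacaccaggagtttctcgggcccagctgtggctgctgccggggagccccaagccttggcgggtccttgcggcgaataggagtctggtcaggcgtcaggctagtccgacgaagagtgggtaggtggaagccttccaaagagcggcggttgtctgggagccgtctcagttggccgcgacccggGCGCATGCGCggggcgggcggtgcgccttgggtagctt

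The match began 87 bases before the start in POP4, 156 in POP5 and 38 in RPP14. In the NRF1 library the log2 fold changes of these genes were -0.03 for POP4, -0.08 for POP5 and -0.06 for RPP14, each with an interval for counting error that held 1. RPP40 and RPP30, which were below the control in that library by more than counting error, held no match. The E2F forms TTTCCCGC and TTTGGCGC and the EGR1 form GCGTGGGCG, searched on both strands, were in 1.928% and 0.72% of all promoters and in none of the 8. A match or its absence in this window is a description of letters only.

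RPP21, listed for RNase P, and RPP25L, which is not a member here, were measured beside the shared proteins. RPP21, which binds the RNase P RNA, was low, with 12 to 35 counts per library. It was 2.30 times its control level in the TFCP2 library (1.24 to 4.46), past the 2-fold rule, and 2.03 times in NRF1 (1.06 to 4.02), where its log2 fold change of 0.93 missed it. RPP21 shares 452 exon bases with the readthrough gene TRIM39-RPP21, so these counts are uncertain. RPP25L, the paralog of RPP25, kept to log2 fold changes of -0.25 to 0.11.

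Genes of RNA polymerase III, which makes RMRP, and of polymerase III factors for this and other types of promoter stayed within 2-fold of the control. All 18 RNA polymerase III subunit genes, 11 factors of the upstream type of promoter and 10 other polymerase III factors were measured. Of their 144, 88 and 80 pairs with a TF library, 0 passed the 2-fold rule. Among all tested genes that rule called 0.491 to 8.24% higher and 0.185 to 0.879% lower, depending on the TF library. These shares take in genes down to 1 CPM and were not matched to the level of the listed genes. SNAPC5 and SNAPC4, subunits of the complex that binds the proximal element of such promoters, had median log2 fold changes of -0.25 and 0.20. BRF1, which recruits the polymerase to tRNA genes, was at 0.72 in the E2F4 library, and SSB, the La protein that binds the ends of new polymerase III transcripts, had a median of -0.22. POLR3GL, a polymerase III subunit, stood at -0.50 in HOXA11 and between -0.33 and -0.10 in the other TF libraries.

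Genes that work with RNase MRP on its substrates were likewise within 2-fold, beside those same shares of all tested genes. None of the 168 pairs of 21 pre-rRNA nucleases, such as EXOSC2 of the exosome with a median of -0.17, passed the rule. The same held for the 216 pairs of 27 ribosome assembly factors, where nucleolin (NCL) and fibrillarin (FBL) had medians of -0.17 and -0.18. For 12 genes of mitochondrial DNA replication 0 of 96 pairs passed, and TWNK, the mitochondrial helicase, reached 0.43 in the NRF1 library. Of 6 genes for tRNA end processing, 1 of 48 pairs passed, ELAC1 at -1.09 in NRF1. ELAC1 was low, at a mean of 1.83 CPM, so that value rests on few counts. PRORP, the protein-only mitochondrial RNase P nuclease, had a median of -0.31.

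**Figure D5:**
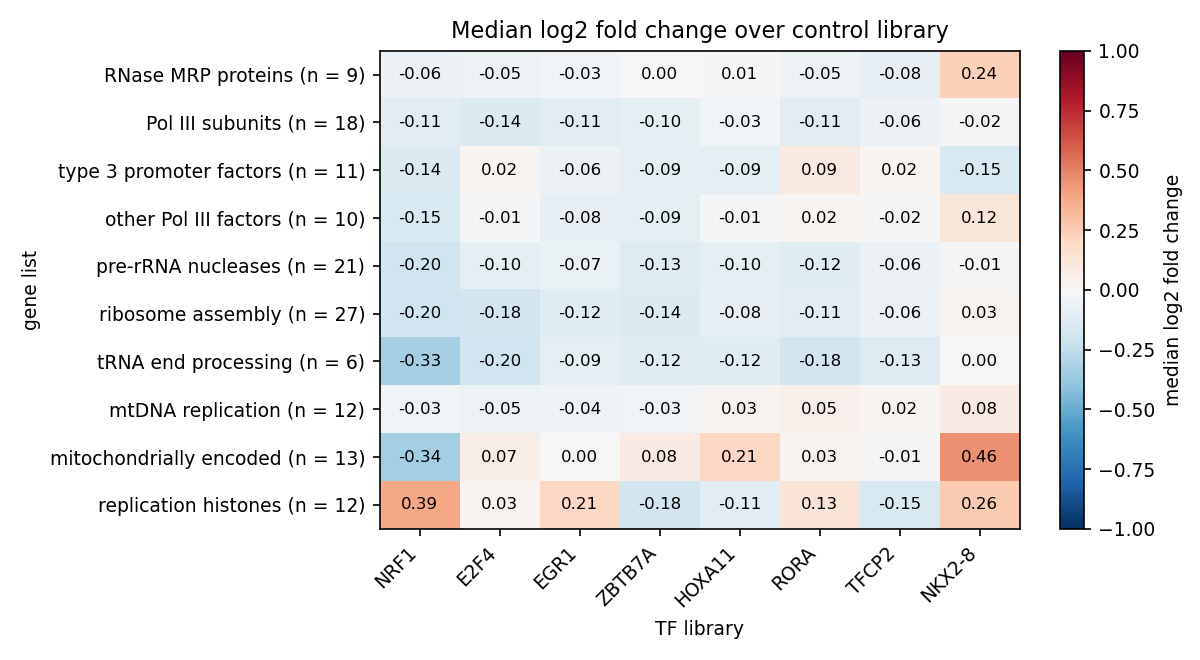
Median log2 fold change over the control library (colour and number) of each gene list (down the page, with the number of measured genes) in each TF library (across). The protein subunits were between -0.08 and 0.01 in 7 libraries and at 0.24 in NKX2-8, and the lists of polymerase III genes stayed between -0.15 and 0.12.

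The class test called 0 genes of any of these lists, by edgeR at an adjusted p of 0.05. It called 0.06% of all 15012 genes tested, so 0 is near what that share gives. The genes whose log2 level was most like that of RMRP over the 9 libraries, among 11147 named genes at a mean of at least 5 CPM, were CLCN3 (r = 0.936), DNPH1, ISCU and COQ9 (0.931 each) and PREPL (0.924). Their ranges were only 0.17 to 0.32 on the log2 scale, against 2.2 for RMRP. Among 231 lncRNAs the most alike were NUTM2A-AS1 (0.846), EIF3J-DT (0.804), COX10-DT (0.758), CLN8-AS1 (0.733) and LINC00963 (0.717), with ranges of 0.36 to 0.53. These are Pearson correlations over 9 libraries, picked as the highest of many. They describe a linear likeness to the log2 RMRP values, which have the control and TFCP2 at the high end.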

How the data were processed

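Total RNA of 293T cells was sequenced in 9 libraries made with a directional kit. Per the labels, the authors checked reads with FastQC 0.11.2, mapped them with STAR 2.6.0c to GRCh37 and counted them with featureCounts 1.6.3. The deposited table holds raw counts per gene, not normalized, and the length of each gene in bases. The labels name TRIzol for extraction and the methods a miRNeasy kit, and what this does to the levels of short RNAs was not tested. Whether rRNA or tailed RNA was selected, and the strand setting, are not given in the sources used here.

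Of 36202 Ensembl IDs, 25120 had a symbol. RMRP was matched by the ID list of the study and by coordinates. Counts were scaled by TMM (edgeR 4.0.16, R 4.3.3), with a prior count of 2 in log2 fold changes. Listed genes counted as measured at a mean of 1 CPM. Intervals cover counting error only. The class test was edgeR's quasi-likelihood test, tested on simulated data, with DESeq2 1.42.0, other scalings, filters, references and left-out libraries as alternatives. Named genes were the members, RPPH1, RPP21, RPP25L, neighbours within 1000 bases, the 3 most shifted genes of each list and the 5 most like RMRP. Members and lists were chosen with earlier results of these data known. The p-values measure the spread between TFs.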

Additional observations from a re-analysis of the deposited data

How the results depend on the processing

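RMRP was lower in 7 libraries, with a median log2 fold change of -1.70. The count was 7 under every other scaling and fold limit, 6 or 7 with 1 TF library left out, and the median was then -1.73 to -1.66, or -1.77 and -1.57 with prior counts of 0.5 and 5. At a minimum of 5 CPM, which RMRP and the RPPH1 locus reach in no library, the counts for RMRP and for the other short RNAs were 0. The count for the other short RNAs, 7 in the report, was 10 at a 1.5-fold limit and 6 or 7 with 1 library left out. Both counts were also 0 with the mean of the 7 other TF libraries as reference, where the RMRP median was -0.34, and with TFCP2 left out of that mean, chosen after seeing the data, where it was -0.05. Under the first of these references, among values past the 2-fold rule, the sign turned for RMRP in RORA (0.40) and for the RPPH1 locus in EGR1 (0.32) and HOXA11 (0.18). Under the second it turned for RMRP in RORA (0.73) and NKX2-8 (0.09) and for the RPPH1 locus in EGR1 (0.57), HOXA11 (0.41) and RORA (0.04). In the TFCP2 library, which had not passed the rule, RMRP stood at 1.37, the RPPH1 locus at 1.10 and the 7SL gene at 0.58 under both. The 7SL gene, which passed it nowhere, also turned in NRF1 (0.11 and 0.22) and EGR1 (0.15 and 0.26), and in RORA under the second alone (0.03), where HOXA11 was at 0. These references are means of TF libraries alone, so the control does not enter them.

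The count of changed subunits was 0 under every alternative, and so was the class count, with adjusted p of 0.557 to 1 over the 9 proteins. Class differences near 0 changed sign: that of RPP30 was 0.01 when scaled by library totals. With 1 TF library left out, the class log2 fold change was -0.09 to 0.04 for RPP30, -0.05 to 0.18 for RPP25, -0.02 to 0.08 for POP5, -0.04 to 0.07 for POP4 and -0.01 to 0.05 for RPP14. No paired analysis was possible because the labels give no replicate numbers and each condition has 1 library. At 14 to 74 counts of RMRP per library, depth cannot rank the 6 lowest TF libraries.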

Other observations

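Replication-dependent histone mRNAs also end without a poly(A) tail. Of 44 listed, 38 were in the table and 12 were at a mean of at least 1 CPM, and of their 96 pairs with a TF library 9 were higher and 3 lower than the control by the 2-fold rule. Of the 9, 4 were in the NRF1 library, where 8.24% of all tested genes were higher, and the share was 0.491 to 3.68% in the other TF libraries, while 0.185 to 0.879% of all tested genes were lower. Their summed level was 53.6 to 82.6 CPM in the TF libraries and 61.0 CPM in the control, with the TFCP2 library the lowest. RMRP was close to the control in that library. The part that recovery of untailed RNA had in either was not tested. H3C6, a histone H3 gene, was above the control in every TF library, at log2 fold changes of 0.58 in HOXA11 to 1.97 in NRF1. H1-4, a linker histone gene, ran from -1.13 in E2F4 to 0.10 in RORA. Their means were 2.24 and 1.13 CPM, so these values rest on few counts, and all share the control library.

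RNase MRP was first linked to the replication of the mitochondrial genome. The 13 genes of that genome had 0 of 104 pairs past the 2-fold rule, beside the shares of all tested genes given for the histones. Their median log2 fold change was lowest in the NRF1 library, at -0.34, and highest in NKX2-8, at 0.46, where MT-CYB, a subunit of complex III, stood at 0.82. The NKX2-8 library was also the highest for POP1, POP4, RPP30, RPP38 and RPP40. A link between these genes and those of the mitochondrial genome was not tested.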
